A study of Rattus norvegicus with 15 samples.

Results

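Genes of the blood-brain barrier were followed in the posterior cerebral artery of the rat after occlusion of 3 vessels that feed the brain. The 9 listed genes are Cldn5, Ocln and Tjp1, which belong to tight junctions, and Abcb1a, Abcg2, Abcc4, Slco1a4, Slc7a5 and Slco1c1, which carry molecules across the endothelium. The members were taken by name: every probe set whose annotated symbol was 1 of the 9 was kept, whatever its values. Of the 9 genes, 7 had a probe set, among 10411 genes with a probe set of their own on the array. Abcg2 and Abcc4 are not analysed here. The 7 genes had 10 probe sets of their own, and 1 more probe set is assigned to both Abcb1a and the related gene Abcb1b.

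The blood-brain barrier is formed by endothelial cells whose tight junctions close the space between neighbouring cells, so that solutes have to pass through the cells. Claudins and occludin span the membrane at these junctions, and zonula occludens proteins tie them to the actin skeleton. Efflux pumps on the blood-facing membrane return many lipophilic compounds to the blood, while carriers bring in amino acids, hormones and other solutes. In an artery the endothelium is a thin inner layer, and the wall around it is mainly smooth muscle.

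RNA of the ipsilateral posterior cerebral artery of Sprague Dawley rats aged 7 weeks was measured on 15 Affymetrix Rat230A arrays, 3 in each of 5 groups. In the groups called 3VO (3-vessel occlusion), both vertebral arteries had been coagulated and the left common carotid artery tied, and arteries were taken after 24 h or after 3 d. In the sham groups of 24 h and 3 d these vessels had been laid open and left untouched, and the intact group had no surgery. In all 5 groups the vessels were filled with latex under dilation with papaverine, and each array received RNA pooled from 8 rats; the operated groups had also received isoflurane and buprenorphine. The labels speak of repeated hybridisation of pooled RNA and do not say whether the 3 arrays of a group came from separate pools, so the p-values measure the spread between arrays, which may be technical in part.

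Values are signals on the scanner software's linear scale, whose 2% trimmed mean was 5000 on every array, so the number of arrays and not a read depth limits the precision. Arrays are numbered 1 to 3 within a group, and the numbers only name them. The treatment text of sham 3 d array 1 describes the occlusion although its title and source name it sham, so the differences that rest on the sham arrays of 3 d are also given without that array. Defining genes of the vessel wall were measured on every array: the endothelial gene Vwf had signals of 10824 to 34564, and the smooth muscle gene Acta2 had 26698 to 84639. Genes of brain tissue were present too, with 45469 to 113552 for the astrocyte gene Gfap, and the choroid plexus gene Ttr ran between 9354 and 282179. Sham 3 d array 3 and intact array 2 stood apart in 12 choroid plexus genes, at mean log2 deviations of 2.45 and 2.61, against 0.85 or less on the other arrays. A change in the number of endothelial cells and a change in RNA per cell cannot be told apart in such pooled tissue.

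For the 3 genes whose leading probe sets varied most alike over the arrays, the promoter is shown, that is 250 bases before to 50 bases after the annotated start, from RefSeq on the build GRCr8. The sequences run 5′ to 3′ on the gene's strand and all 3 lie on the minus strand: Cldn5 at chr11:95718549-95718848, Tjp1 at chr1:128325311-128325610 and Slco1a4 at chr4:176495797-176496096. Capitals mark matches on either strand to 5 letter patterns: AGGAAG (ETS family), ATTGT (SOX family), CTTTGA (TCF/LEF family), GGGCGG (GC box) and GCGTG (core of the xenobiotic response element).
Cldn5: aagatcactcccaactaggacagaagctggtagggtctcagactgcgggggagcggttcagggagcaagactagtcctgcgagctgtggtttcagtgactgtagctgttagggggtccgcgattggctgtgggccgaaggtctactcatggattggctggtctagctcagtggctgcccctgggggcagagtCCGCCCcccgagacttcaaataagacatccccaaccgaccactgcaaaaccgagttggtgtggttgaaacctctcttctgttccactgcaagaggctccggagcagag
Tjp1: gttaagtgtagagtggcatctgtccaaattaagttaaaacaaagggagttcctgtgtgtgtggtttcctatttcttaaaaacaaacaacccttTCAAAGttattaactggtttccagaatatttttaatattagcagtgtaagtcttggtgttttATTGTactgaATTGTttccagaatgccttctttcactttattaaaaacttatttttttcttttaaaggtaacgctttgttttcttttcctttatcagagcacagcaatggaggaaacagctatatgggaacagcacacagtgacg
Slco1a4: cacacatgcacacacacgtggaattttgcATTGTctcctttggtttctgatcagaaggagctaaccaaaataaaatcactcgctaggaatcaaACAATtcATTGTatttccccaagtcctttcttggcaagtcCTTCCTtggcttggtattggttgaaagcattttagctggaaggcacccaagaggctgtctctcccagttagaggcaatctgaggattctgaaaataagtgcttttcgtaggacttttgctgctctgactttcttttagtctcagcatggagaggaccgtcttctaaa

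The Cldn5 window held 1 GC box, 58 bases before the start, and no other pattern. The Tjp1 window held 2 ATTGT matches and 1 CTTTGA match, and that of Slco1a4 held 3 ATTGT matches and 1 AGGAAG match. None of these matches overlapped another. Of 33469 rat promoters of the same length, 33.7% held ATTGT, 34.5% AGGAAG, 33.1% GGGCGG, 29.7% GCGTG and 16.1% CTTTGA. No pattern was therefore found in all 3 windows, ATTGT was found in those of Tjp1 and Slco1a4, and the windows differed in base composition, with 57.7% G and C for Cldn5, 33.7% for Tjp1 and 43% for Slco1a4. A match is a run of letters and says nothing of binding in these arteries.

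No junction or transporter gene of the set passed the test in any of 9 comparisons between groups. The test was limma on log2(signal + 16) with Benjamini-Hochberg adjustment over 15737 probe sets, and a probe set passed at an adjusted p under 0.05. Relative to sham surgery at 24 h, 9 of the 10 probe sets lay lower in the occluded arteries on the log2 scale, by at most 0.39 in size, and Slc7a5 alone lay higher. At 3 d 7 of 10 lay lower, and without sham array 1 also 7, not all of them the same probe sets. Over all probe sets tested, 47.3% were higher in 3VO than in sham arteries at 24 h and 48.5% at 3 d. The 10 probe sets belong to 7 genes and several varied together, so they are not separate observations. Signals of Abcb1a, Ocln, Cldn5 and Slco1a4 were higher in the operated groups than in intact arteries on several probe sets, most of all in sham arteries at 24 h, without passing the test.

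**Figure D1:**
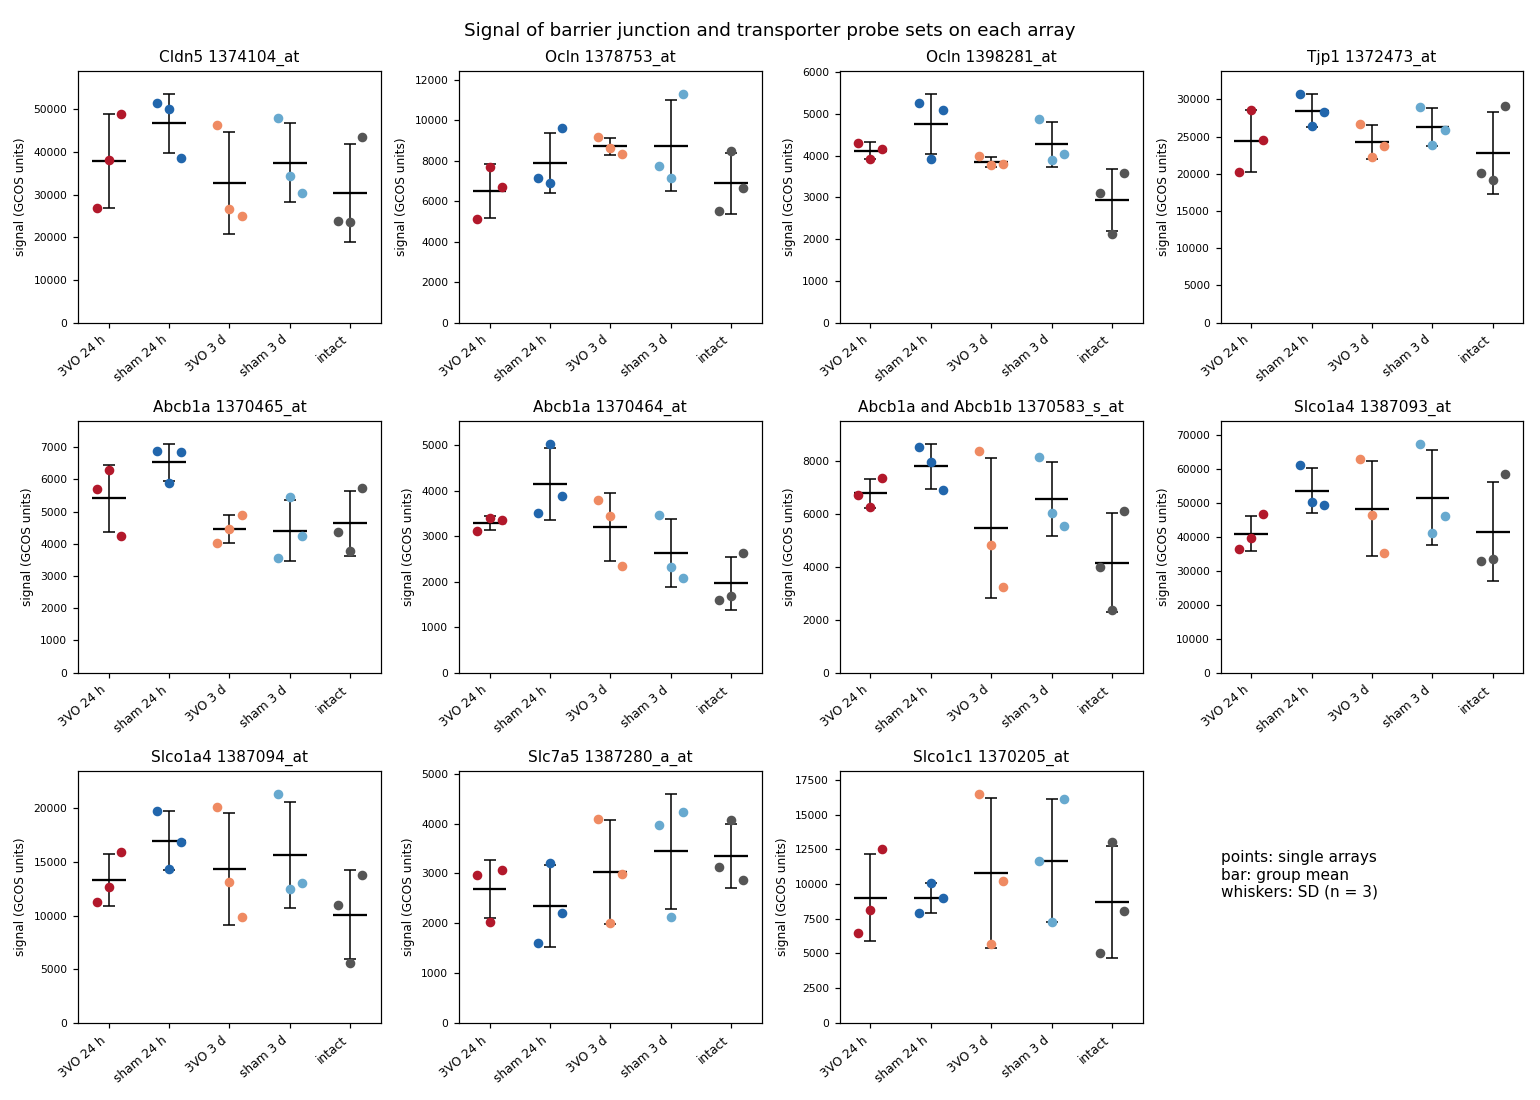
Signal of each probe set on every array, by group, on linear axes that start at 0; points are arrays, bars are group means and whiskers are SD (n = 3). The 3 intact arrays of Ocln 1398281_at lie below the arrays of every operated group, and the groups overlap for Slc7a5 and Slco1c1.

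Cldn5 encodes claudin-5, the main claudin of brain endothelium. Its probe set 1374104_at had signals of 26770, 38009 and 48916 on the 3 arrays of 3VO arteries at 24 h, against 51351, 50016 and 38659 in sham arteries at 24 h. After 3 d the signals were 46385, 26520 and 25020 in 3VO arteries, against 47921, 34249 and 30278 in sham arteries. The occluded and sham arrays overlapped at both times, and each 3VO group held at least 1 array near the highest sham value. The Cldn5 signal averaged 37898 ± 11074 in 3VO and 46675 ± 6975 in sham arteries at 24 h (SD, n = 3 each), a log2 difference of -0.33 (SE 0.29, adjusted p = 0.876 by limma). At 3 d the difference was -0.23 (SE 0.29, adjusted p = 0.999 by limma), and it shrank to -0.039 (SE 0.32) without sham array 1. Leaving out any 1 array, the Cldn5 difference ranged between -0.54 and -0.10 at 24 h and between -0.51 and -0.039 at 3 d. Intact arteries had Cldn5 signals of 23854, 23647 and 43596, the lowest group mean, yet intact array 3 exceeded 2 of the 3 arrays of each operated group at 3 d. No neighbouring group means of Cldn5, in the order sham 24 h, 3VO 24 h, sham 3 d, 3VO 3 d and intact, differed by more than the sum of their SDs.

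Ocln encodes occludin, a membrane protein of the tight junction strands, and 2 probe sets measured it. The brighter one, 1378753_at, had signals of 5092, 7702 and 6707 in 3VO arteries at 24 h, against 7123, 6903 and 9596 in sham arteries. At 3 d it had 9173, 8631 and 8345 in 3VO arteries, against 7755, 7133 and 11308 in sham arteries, and intact arteries had 5516, 8497 and 6650. The 3 d 3VO arrays were closely spaced and lay above all 3 of the 24 h 3VO arrays, a log2 difference of 0.44 (SE 0.21, adjusted p = 0.845 by limma); 9.34% of all probe sets tested were higher without overlap in that comparison. Against sham, its log2 difference was -0.28 (SE 0.21) at 24 h and 0.03 (SE 0.21) at 3 d, with adjusted p of 0.850 and 0.999 by limma. The 3 d value took the opposite sign without sham array 1, at -0.04.

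The second Ocln probe set, 1398281_at, gave a different pattern. It had signals of 4304, 3912 and 4151 in 3VO arteries at 24 h, against 5254, 3926 and 5104 in sham arteries, and at 3 d 3990, 3773 and 3798 in 3VO arteries, against 4881, 3886 and 4045 in sham arteries. Intact arteries had 3107, 2116 and 3594, so that every intact array lay below every operated array. Occlusion and sham overlapped at both times, with log2 differences of -0.20 (SE 0.19) at 24 h and -0.14 (SE 0.19) at 3 d, the second of which was -0.041 without sham array 1. The step between 3VO arteries at 3 d and intact arteries was the single step in any order of group means, over all 10 probe sets, that exceeded the sum of the SDs of its neighbours. Over the 15 arrays the 2 Ocln probe sets correlated at r = 0.04, and at -0.30 after group means were removed, so a statement on occludin RNA depends on the probe set.

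Tjp1 encodes ZO-1, the scaffold that links the junction to actin. Its probe set 1372473_at had signals of 20182, 28560 and 24579 in 3VO arteries at 24 h, against 30777, 26370 and 28297 in sham arteries. After 3 d Tjp1 had 26718, 22313 and 23732 in 3VO arteries, against 29016, 23932 and 25847 in sham arteries, and intact arteries had 20109, 19117 and 29131. The 3VO and sham arrays of Tjp1 overlapped at both times, and the 3 lowest of the 15 arrays were 3VO 24 h array 1 and intact arrays 1 and 2. Against sham the log2 difference was -0.23 (SE 0.16, adjusted p = 0.831 by limma) at 24 h and -0.11 (SE 0.16, adjusted p = 0.999 by limma) at 3 d, where it was -0.040 without sham array 1. The intervals at 95% for Tjp1 were the narrowest of the set, -0.58 to 0.12 at 24 h and -0.47 to 0.24 at 3 d.

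Abcb1a encodes P-glycoprotein, the drug efflux pump of the blood-facing membrane. Its brighter probe set 1370465_at had signals of 5712, 6281 and 4253 in 3VO arteries at 24 h, against 6879, 5875 and 6851 in sham arteries, and at 3 d 4021, 4447 and 4897 in 3VO arteries, against 3554, 5445 and 4243 in sham arteries. Intact arteries had 4379, 3780 and 5742. The 3 sham arrays at 24 h were above all sham arrays at 3 d and above all intact arrays. Occlusion and sham overlapped, with log2 differences of -0.29 (SE 0.20) at 24 h and 0.03 (SE 0.20) at 3 d, the second of which was -0.11 without sham array 1.

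The second Abcb1a probe set, 1370464_at, had signals of 3122, 3393 and 3356 in 3VO arteries at 24 h, against 3519, 5030 and 3882 in sham arteries. At 3 d it had 3796, 3440 and 2352 in 3VO arteries, against 3472, 2333 and 2086 in sham arteries, and intact arteries had 1587, 1684 and 2639. The 3VO arrays at 24 h all lay below the sham arrays, by a narrow gap, and the intact arrays lay below both. The log2 difference of 3VO from sham was -0.32 (SE 0.26, adjusted p = 0.871 by limma) at 24 h and 0.29 (SE 0.26, adjusted p = 0.999 by limma) at 3 d. Without sham array 1 the 3 d difference was 0.50 (SE 0.27, adjusted p = 0.861 by limma) and the arrays did not overlap, and without sham array 3 it was 0.14. The 24 h difference was -0.17 without sham array 2. The difference between these effects, 3 d minus 24 h, was the largest of the set at 0.60 (SE 0.36, adjusted p = 0.999 by limma) and its interval at 95%, -0.17 to 1.37, included 0. It was 0.82 (SE 0.36, unadjusted p = 0.0384 by limma) without sham 3 d array 1, which did not pass after adjustment either. The probe set shared by Abcb1a and Abcb1b, 1370583_s_at, had 6716, 6276 and 7371 in 3VO arteries at 24 h, against 8552, 7984 and 6890 in sham arteries, and at 3 d 8394, 4829 and 3230 in 3VO arteries, against 8155, 6048 and 5528 in sham arteries. Intact arteries had 4002, 2365 and 6130 for it, and which of the 2 genes gave this signal cannot be told. The log2 difference of 3VO from sham for this shared probe set was -0.20 (SE 0.33) at 24 h and -0.35 (SE 0.33) at 3 d. Its difference between these effects was -0.15 (SE 0.46), opposite in sign to that of 1370464_at. No value without sham 3 d array 1 was computed for the shared probe set.

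Slco1a4 encodes Oatp1a4, a carrier of organic anions in brain endothelium. Its brighter probe set 1387093_at had signals of 36396, 39648 and 46702 in 3VO arteries at 24 h, against 61081, 50240 and 49174 in sham arteries, so the groups did not overlap. The log2 difference was the largest of the set in size at 24 h, -0.39 (SE 0.25, adjusted p = 0.811 by limma). After 3 d it had 62922, 46349 and 35313 in 3VO arteries, against 67284, 41029 and 46138 in sham arteries, which overlapped, and the log2 difference of -0.10 (SE 0.25) was 0.11 without sham array 1. Intact arteries had 32740, 33373 and 58331, 2 values below and 1 above the whole 24 h 3VO group.

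The second Slco1a4 probe set, 1387094_at, followed the first, with r = 0.85 over the arrays. It had signals of 11239, 12639 and 15963 in 3VO arteries at 24 h, against 19784, 14315 and 16836 in sham arteries, which overlapped, and a log2 difference of -0.36 (SE 0.32). After 3 d this probe set had 20113, 13094 and 9881 in 3VO arteries, against 21341, 12493 and 13082 in sham arteries, a log2 difference of -0.14 (SE 0.32) that was 0.11 without sham array 1. Intact arteries had 10996, 5534 and 13766, all below the sham arrays of 24 h. On intact array 2 the second signal was 0.166 of the first, against 0.236 to 0.342 on the other arrays, and that array also had the lowest ratio of 5′ to 3′ actin probe sets, 0.323, a measure of RNA length. Its part in the low second signal was not tested.

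Slco1c1 encodes Oatp1c1, which carries thyroxine into the brain, and Slc7a5 encodes LAT1, the light chain of the carrier for large neutral amino acids. The Slco1c1 probe set 1370205_at had signals of 6443, 8120 and 12509 in 3VO arteries at 24 h, against 7891, 10040 and 9026 in sham arteries, and at 3 d 16481, 5653 and 10237 in 3VO arteries, against 11620, 7297 and 16152 in sham arteries. Intact arteries had 4996, 13024 and 8081. The groups overlapped throughout, and the spread within groups reached a coefficient of variation of 50.4% in 3VO arteries at 3 d. The log2 difference from sham was -0.04 (SE 0.40) at 24 h and -0.17 (SE 0.40) at 3 d, and the interval at 24 h, -0.89 to 0.81, was wide. Without sham array 1 the 3 d value was -0.14. On the linear scale the 24 h means were 9024 in 3VO and 8986 in sham arteries, so even the direction depends on the scale.

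The Slc7a5 probe set 1387280_a_at had signals of 2972, 2017 and 3071 in 3VO arteries at 24 h, against 1595, 3214 and 2214 in sham arteries. At 3 d it had 4096, 2013 and 2978 in 3VO arteries, against 3966, 2120 and 4237 in sham arteries, and intact arteries had 3118, 4073 and 2865. Slc7a5 was the single probe set with a log2 difference above 0 between 3VO and sham arteries at 24 h, 0.23 (SE 0.33, adjusted p = 0.938 by limma), and the arrays overlapped. At 3 d the difference was -0.18 (SE 0.33, adjusted p = 0.999 by limma), and -0.044 without sham array 1.

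**Figure D2:**
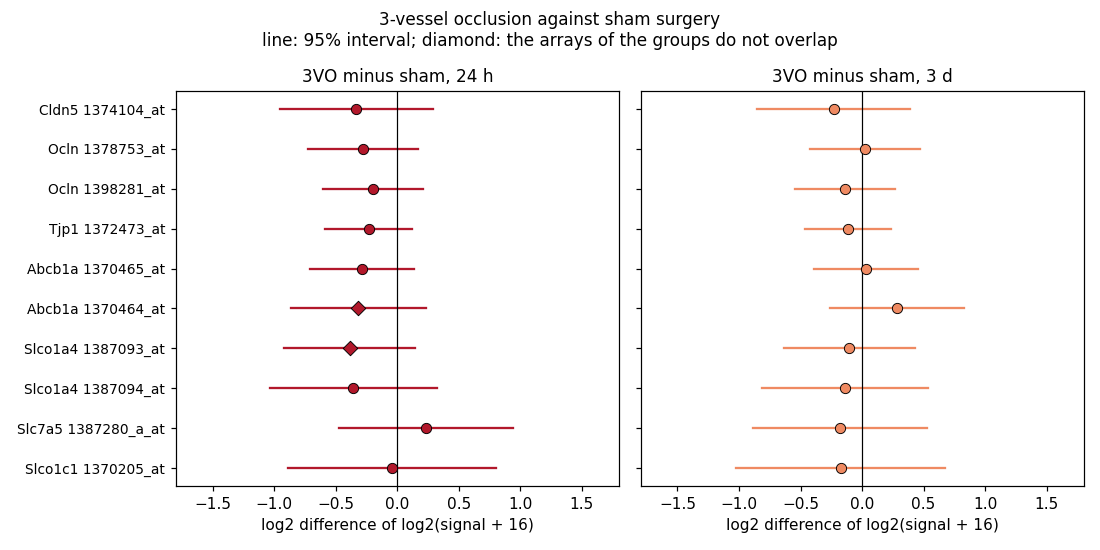
Log2 difference of 3VO from sham arteries for the 10 probe sets at 24 h (left) and 3 d (right), with 95% intervals from limma; diamonds mark probe sets whose 3VO and sham arrays did not overlap. All 20 intervals include 0, and the 2 diamonds, Abcb1a 1370464_at and Slco1a4 1387093_at, lie on the lower side at 24 h.

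Read as a set, the 10 probe sets had a median log2 difference of -0.28 between 3VO and sham arteries at 24 h, against -0.02 over all probe sets tested. In this comparison 0 of the 10 passed the test and 0 had an unadjusted p under 0.05, while 0.0508% of all probe sets passed and 6.97% had such a p. Arrays did not overlap for 2 of the 10, both lower in 3VO arteries, against 9% of all probe sets in that direction. At 3 d the median was -0.13, against -0.01 over all probe sets, and 0 of 10 passed by limma with 0 at an unadjusted p under 0.05, beside 0% of all probe sets that passed and 4.73% with such a p. No probe set was without overlap at 3 d in either direction, against 4.34% higher and 4.75% lower of all probe sets. Without sham 3 d array 1 the median was -0.041, against -0.03 over all probe sets, 0 of 10 passed with 0 at an unadjusted p under 0.05, and 1 of 10, Abcb1a 1370464_at, was higher without overlap, against 9.29% of all. The change of the occlusion effect between the times passed for 0 of 10, with 0 at an unadjusted p under 0.05, beside 0% and 2.78% of all probe sets. Intervals of single probe sets reached down to -1.03 and up to 0.94 at 24 h, so differences up to that size lay within them.

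Markers of the vessel wall and of other cells were measured beside the set, and their part in its values was not tested. At 24 h the 22 endothelial genes had mean log2 deviations of -0.26 to 0.18 on 3VO arrays, against 0.16 to 0.31 on sham arrays, and 18 of 22 were lower in 3VO arteries, their median log2 difference being -0.28. At 3 d 20 of 22 were lower, with a median of -0.21 and deviations of -0.29 to 0.23 on 3VO arrays, against 0.19 to 0.21 on sham arrays. Without sham 3 d array 1 it was 17 of 22, with a median of -0.18. All 12 smooth muscle genes lay lower in 3VO arteries at both times, with medians of -0.67 at 24 h and -0.36 at 3 d, the second of which was -0.57 without that array. Of 14 neuronal genes, 14 lay higher at 24 h and 12 at 3 d, with medians of 0.96 and 0.31. Without sham 3 d array 1 it was 11 at 3 d, with a median of 0.27. Astrocyte genes lay higher in 11 of 14 at 24 h and in 8 of 14 at 3 d, with medians of 0.48 and 0.0016. Without that array 12 of 14 lay higher at 3 d, with a median of 0.25. Of 13 macrophage genes, 12 lay higher at 24 h and 13 at 3 d, with medians of 0.21 and 0.54, the second of which was 0.72 without that array. The macrophage deviations did not overlap between the groups at either time, with 0.31 to 0.88 on 3VO arrays, against -0.23 to 0.23 on sham arrays at 24 h, and 0.14 to 0.50 on 3VO arrays, against -0.45 to -0.21 on sham arrays at 3 d. All 5 erythroid genes lay lower at both times, and leptomeningeal genes lay lower in 11 of 12 at 24 h and in 6 of 12 at 3 d. Without sham 3 d array 1 the 3 d counts of lower genes were 5 of 5 and 4 of 12. Of 12 pericyte genes 8 lay lower at both times, with medians of -0.35 and -0.072. Oligodendrocyte genes lay higher in 8 of 9 at 24 h and lower in 9 of 9 at 3 d. Their medians were 0.32 and -0.30. Choroid plexus genes lay lower in 10 of 12 at both times, with medians of -0.23 and -0.49. The 3 d counts of lower genes in these lists were 5, 8 and 11 without that array, with medians of 0.0071, -0.26 and -1.15. Of all the marker genes 1 passed the test in these comparisons, Lcn2 of the neutrophil list, which codes for lipocalin-2 and was higher in 3VO arteries at 24 h (2.63, SE 0.38, adjusted p = 0.0141 by limma). Of the 6 neutrophil genes, 3 lay higher and 3 lower at 24 h, and Lcn2 alone had an unadjusted p under 0.05 by limma. With the endothelial mean as a covariate the 24 h difference of Cldn5 became 0.14 (SE 0.16), that of Slco1a4 1387094_at 0.01 (SE 0.28) and that of Abcb1a 1370464_at -0.054 (SE 0.25), and at 3 d those of Cldn5 and Slco1a4 1387093_at became 0.30 (SE 0.17) and 0.29 (SE 0.19). Since that mean is taken from the same arrays and itself differs between the groups, these are values under another model and not corrected effects.

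The widest differences were those of sham arteries at 24 h from intact arteries. In sham arteries at 24 h, 9 of the 10 probe sets were higher than in intact arteries, against 54.2% of all, and the median log2 difference was 0.46, against 0.04 over all probe sets. By limma 0 of the 10 passed and 5 had an unadjusted p under 0.05, and over all probe sets 0% passed and 15.02% had such a p. The arrays did not overlap for 4 of 10, higher in sham arteries in each case, against 9.96% of all probe sets. These were both Abcb1a probe sets, with log2 differences of 1.09 (SE 0.26, adjusted p = 0.135 by limma) for 1370464_at and 0.51 (SE 0.20, adjusted p = 0.250) for 1370465_at, Ocln 1398281_at with 0.72 (SE 0.19, adjusted p = 0.135) and Slco1a4 1387094_at with 0.84 (SE 0.32, adjusted p = 0.241). Cldn5 was 0.67 higher (SE 0.29, adjusted p = 0.297 by limma) with overlapping arrays, and Slc7a5 was the exception at -0.56 (SE 0.33, adjusted p = 0.455 by limma). Without intact array 3, Abcb1a 1370464_at and Ocln 1398281_at passed the test, at 1.32 and 0.88 with adjusted p of 0.0202 and 0.0279 by limma, and 5.20% of all probe sets passed with them. Adjusted p ranged between 0.0202 and 0.872 for the first and between 0.0279 and 0.829 for the second over the alternatives.

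The other operated groups had smaller median differences from intact arteries, 0.17 in 3VO arteries at 24 h, 0.26 in 3VO arteries at 3 d and 0.34 in sham arteries at 3 d. Over all probe sets tested these medians were 0.0048, 0.067 and 0.084. In 3VO arteries at 24 h, 8 of 10 probe sets were higher than in intact arteries, against 50.6% of all. Among the 10, 0 passed by limma and 2 had an unadjusted p under 0.05, beside 0.184% of all probe sets that passed and 9.96% with such a p; the arrays of Ocln 1398281_at and Abcb1a 1370464_at did not overlap, against 7.59% of all. In 3VO arteries at 3 d, 8 of 10 were higher, against 57.0% of all, 0 passed and 2 had such a p, beside 0.222% of all that passed and 12.9% with such a p, and Ocln 1398281_at alone was higher without overlap, against 10.3%. In sham arteries at 3 d, 8 of 10 were higher, against 58.8% of all, 0 passed and 2 had such a p, beside 0% of all that passed and 14.2% with such a p, and again Ocln 1398281_at alone was without overlap, against 9.86%. Without sham 3 d array 1 the median was 0.18, against 0.095 over all probe sets. In that fit 9 of 10 were higher and 1 had such a p, against 12.3% of all with such a p. These 4 comparisons share the 3 intact arrays, so their agreement in direction is not independent. Ocln 1398281_at differed from intact arteries by 0.52 and 0.42 in 3VO arteries at 24 h and 3 d and by 0.56 in sham arteries at 3 d (SE 0.19 each), the last of which was 0.46 (SE 0.21) without sham 3 d array 1.

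**Figure D3:**
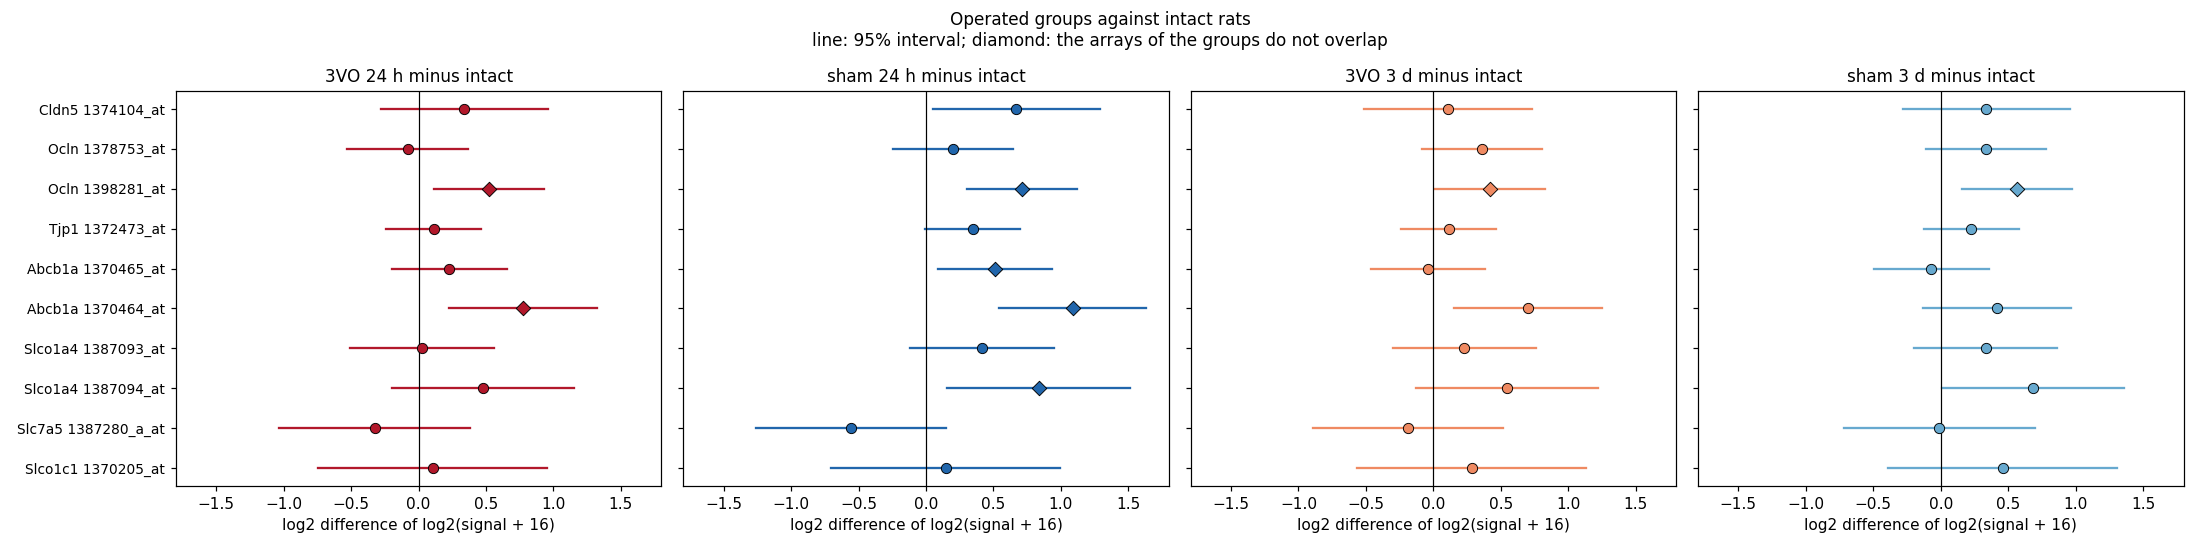
Log2 difference from intact arteries for the 10 probe sets in 3VO arteries at 24 h, sham arteries at 24 h, 3VO arteries at 3 d and sham arteries at 3 d, with 95% intervals from limma. Diamonds mark probe sets whose arrays did not overlap; sham arteries at 24 h have 4, and the intervals of Ocln 1398281_at lie above 0 in all 4 panels.

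Of the 3 intact arrays, 2 stood apart from the operated ones in marker levels. Intact arrays 1 and 2 had endothelial deviations of -0.54 and -0.47 and neuronal deviations of 1.34 and 1.08, whereas intact array 3, with 0.03 and -0.13, lay within the range of the operated arrays for both. In sham arteries at 24 h 20 of 22 endothelial genes were higher than in intact arteries, with a median of 0.64. With the endothelial mean as a covariate, the difference of Abcb1a 1370464_at became 0.53 (SE 0.32, adjusted p = 0.872 by limma), that of Ocln 1398281_at 0.54 (SE 0.28) and that of Cldn5 -0.34. Without intact array 2, Ocln 1398281_at differed by 0.50 and Slco1a4 1387094_at by 0.45. The intact arrays were also the last 3 in the numbering of the titles, so this order and the group cannot be told apart.

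Between the times, the smallest p values of the set belonged to the efflux pump. Both Abcb1a probe sets were lower in sham arteries at 3 d than at 24 h without overlap, by log2 differences of -0.58 (SE 0.20) and -0.67 (SE 0.26), each with adjusted p = 0.867 by limma. The probe set shared by Abcb1a and Abcb1b had -0.26 (SE 0.33) in this comparison, with overlapping arrays. There 0 of 10 probe sets passed by limma and 2 had an unadjusted p under 0.05, beside 0% and 5.65% of all probe sets, and 4.55% of all were lower without overlap. Without sham 3 d array 1 the Abcb1a differences were -0.44 (SE 0.21) for 1370465_at and -0.89 (SE 0.27) for 1370464_at, with adjusted p of 0.708 and 0.652 by limma. In that fit 6 of 10 probe sets were lower without overlap, against 10.5% of all, and 1 had an unadjusted p under 0.05, against 7.26%. The 6 were both Abcb1a and both Slco1a4 probe sets, Tjp1 and Cldn5, and sham 3 d array 1 held the highest 3 d sham signal of Cldn5, Tjp1 and both Slco1a4 probe sets. In 3VO arteries, 0 of 10 passed between 3 d and 24 h and 0 had such a p, beside 0% and 5.76% of all, and the log2 differences of the Abcb1a probe sets were -0.27 (SE 0.20) and -0.07 (SE 0.26).

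Over the 15 arrays, several of the genes varied together. Cldn5 correlated with Slco1a4 1387093_at at r = 0.84 and with Tjp1 at 0.82, and Tjp1 with Slco1a4 1387093_at at 0.80. After group means were removed the same values were 0.90, 0.77 and 0.76. With the mean of the 22 endothelial genes, which held no member of the set, the correlations were 0.87 for Cldn5, 0.80 for Tjp1, 0.78 and 0.77 for the Slco1a4 probe sets, 0.69 for Ocln 1398281_at and 0.67 for Abcb1a 1370464_at. Within groups these became 0.92 for Cldn5, 0.74 for Tjp1, 0.81 and 0.65 for the Slco1a4 probe sets, 0.29 for Ocln 1398281_at and 0.65 for Abcb1a 1370464_at, so that the value of Ocln 1398281_at rested largely on differences between group means. For Slc7a5, Abcb1a 1370465_at and Ocln 1378753_at they were -0.10, 0.25 and 0.31 over the arrays and 0.16, -0.020 and 0.18 within groups. The probe set shared by Abcb1a and Abcb1b had 0.83 with the endothelial mean over the arrays and 0.74 within groups. Ocln 1398281_at and Abcb1a 1370464_at correlated more closely with the leptomeningeal genes than with the endothelial ones. With the leptomeningeal genes they had r = 0.81 and 0.76 over the arrays, and 0.68 and 0.67 within groups. With the macrophage genes Tjp1 had 0.78 within groups, above its endothelial value of 0.74 there, and Ocln 1398281_at had 0.64. Over the arrays these macrophage values were 0.37 and 0.53. The other probe sets ran from -0.66 for Slc7a5 to 0.56 for Abcb1a 1370465_at with the macrophage genes within groups. These are descriptions over 15 arrays in 5 groups that share pooled tissue of varying make-up, and no p is attached.

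**Figure D4:**
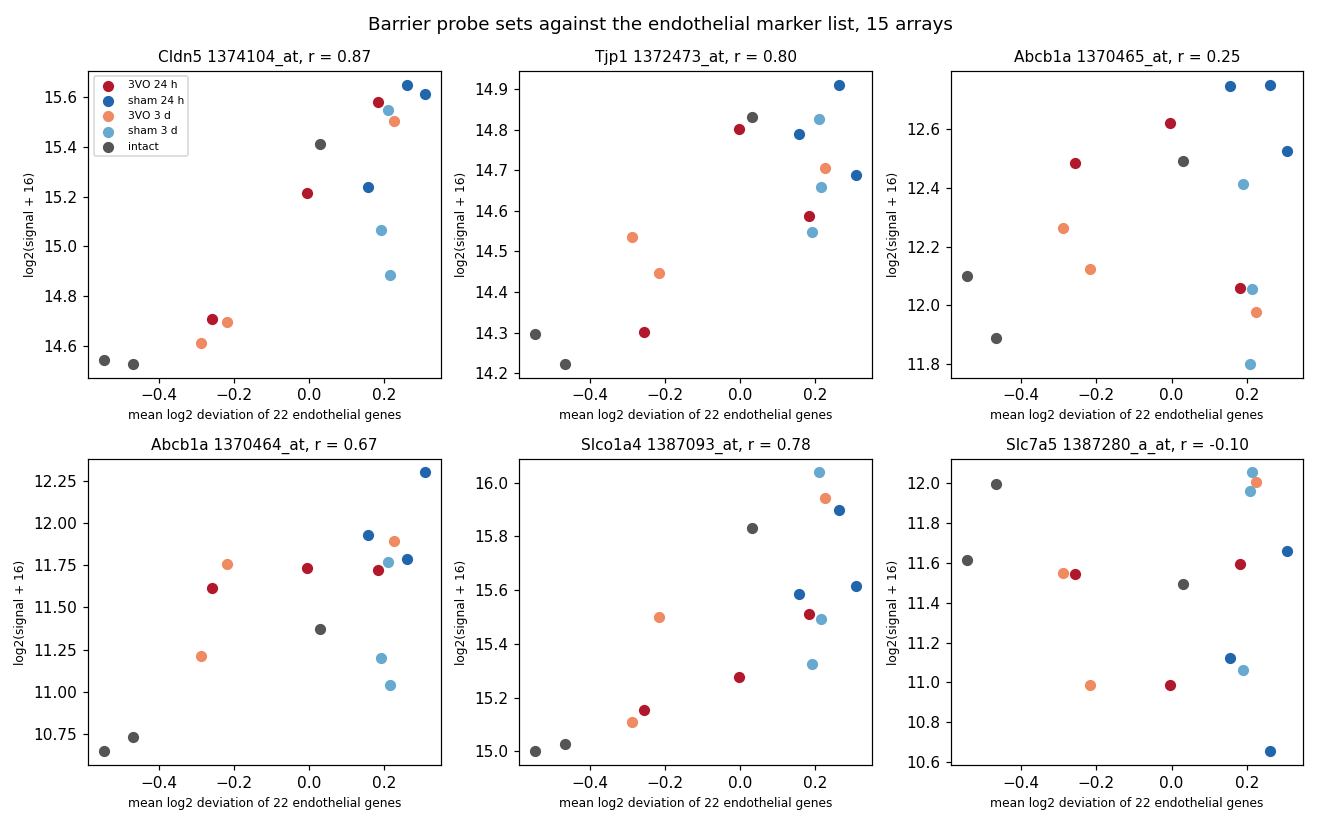
Log2(signal + 16) of 6 probe sets against the mean log2 deviation of 22 endothelial genes, 1 point per array and 1 colour per group, with Pearson r over 15 arrays. Cldn5, Tjp1 and Slco1a4 climb with the endothelial mean and have intact arrays 1 and 2 at the lower left, while Slc7a5 and Abcb1a 1370465_at show no such slope.

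The remaining genes varied along other lines. Slc7a5 and Slco1c1 correlated with each other at r = 0.65 and with 12 choroid plexus genes at 0.52 and 0.51. The brighter Ocln probe set correlated with the same genes at 0.57. Within groups the first value was 0.74, and those with the choroid plexus genes were 0.42, 0.62 and 0.76. Other lists came higher over the arrays. Slc7a5 had r = 0.61 with astrocyte genes, and with pericyte genes Slco1c1 had 0.56 and this Ocln probe set 0.71. Within groups these values were 0.53, 0.55 and 0.58. Slc7a5 ran against the brighter Abcb1a probe set at r = -0.75, and at -0.69 within groups. That Abcb1a probe set had r = 0.55 with smooth muscle genes, 0.54 with erythroid genes and -0.57 with astrocyte genes. Within groups these values were 0.62, 0.62 and -0.43. The Abcb1a probe sets correlated at 0.39 with each other, and at 0.34 and 0.78 with the probe set they share with Abcb1b. Within groups the first of these turned to -0.14 and the others were 0.016 for 1370465_at and 0.74 for 1370464_at. Tjp1 and Slco1a4 1387093_at were low where 14 neuronal genes were high, at r = -0.69 and -0.66, and at -0.55 and -0.51 within groups. So were Ocln 1398281_at and Slco1a4 1387094_at, at -0.67 and -0.61, and at -0.45 and -0.38 within groups. The other probe sets ran from -0.53 for Abcb1a 1370464_at to 0.48 for Slc7a5 over the arrays.

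**Figure D5:**
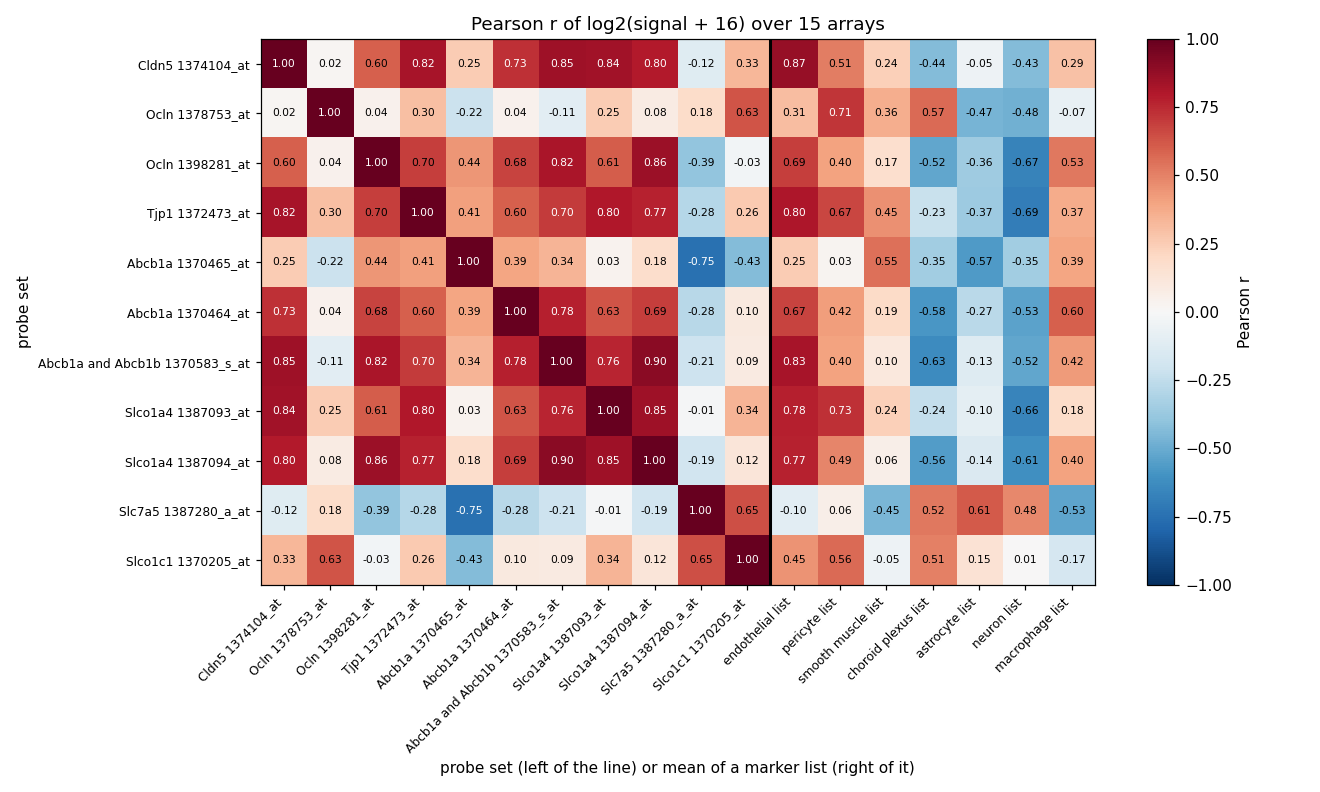
Pearson r of log2(signal + 16) over 15 arrays between the 11 probe sets (left of the line) and with the means of 7 marker lists (right of it); red is positive and blue negative. Cldn5, Tjp1, both Slco1a4 probe sets, the probe set shared by Abcb1a and Abcb1b and the endothelial list form a red block. Slc7a5 and Ocln 1378753_at fall outside it.

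The share of a probe set's variance that lay between the 5 groups was 66.3% for Abcb1a 1370464_at, 64.1% for Ocln 1398281_at and 53.9% for Abcb1a 1370465_at, against a median of 33.7% over all probe sets tested. Cldn5 had 31.9%, Tjp1 31.7%, Slc7a5 24.7% and Slco1c1 10.2%, and the Slco1a4 probe sets had 25.2% and 36.6%. For 7 of the 10 probe sets more of the variance lay within the groups than between them.

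Genes most like each member over the arrays were taken as the 3 highest Pearson r with its leading probe set. For Cldn5 they were Sox17 (r = 0.889), a transcription factor of arterial endothelium that is also in the endothelial list, Adgre5 (0.879) and Pdzph1 (0.859). For Slco1a4 they were Cyp27a1 (0.915), Mpzl1 (0.911) and Inppl1 (0.903), and for Tjp1 Akip1 (0.880), Irs3 (0.868) and Pter (0.867). Ocln was followed by St8sia4 (0.900), Kalrn (0.870) and Eola2 (0.864), Abcb1a by Rragc (0.843), Adgrl2 (0.804) and Rapgef5 (0.801), Slc7a5 by Tnik (0.877), Ehbp1 (0.865) and Pgs1 (0.849), and Slco1c1 by Baz1b (0.813), Lrrc75a (0.796) and Ppp1r36 (0.778). Each value is the highest among many probe sets over 15 arrays, and nothing of function or control is read from it. Sox17 had low signals, 46 to 1097 over the 15 arrays, some of them under the minimum of 100 used for filtering. Its weight in the mean of the 22 endothelial genes was not tested.

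The wider junction, transport and regulator genes did not pass the test either. Of 20 other junction genes tested, 4 were higher and 16 lower in 3VO than in sham arteries at 24 h, their median log2 difference being -0.13, against -0.01 over all genes, and 0 passed by limma with 3 at an unadjusted p under 0.05, against 7.30% of all genes with such a p. The smallest p values belonged to Afdn, an adherens junction scaffold (-0.39, SE 0.13, adjusted p = 0.517 by limma), Cgnl1, which codes for paracingulin (-0.60, SE 0.21, adjusted p = 0.556), Jup, which codes for plakoglobin (-0.44, SE 0.18, adjusted p = 0.668), and Esam, an endothelial adhesion molecule (-0.47, SE 0.23, adjusted p = 0.736). Cgnl1 averaged 10222 ± 1681 in 3VO arteries and 15333 ± 551 in sham arteries (SD, n = 3 each). At 3 d 6 were higher and 14 lower, or 9 and 11 without sham array 1, 0 passed and 0 had such a p, against 4.75% of all genes, and the first 4 were Jup (-0.31), Cgnl1 (-0.34), Lsr (-0.40) and Cldn1 (0.42), each with adjusted p = 0.999 by limma, and -0.29, -0.47, -0.40 and 0.48 without that array.

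Of 46 other transporters and receptors, 21 were higher and 25 lower in 3VO than in sham arteries at 24 h, with a median of -0.04, and 0 passed by limma with 2 at an unadjusted p under 0.05, against 7.30% of all genes. Slc7a3, a carrier of cationic amino acids, came nearest, with signals of 4585 ± 636 in 3VO arteries and 2327 ± 497 in sham arteries (SD, n = 3 each) and a log2 difference of 0.99 (SE 0.20, adjusted p = 0.150 by limma). Insr, the insulin receptor (-0.59), Slc38a5, a glutamine carrier (-0.42), and Slc15a2, a peptide carrier (0.42), followed with adjusted p between 0.713 and 0.796 by limma. At 3 d 20 were higher and 26 lower, or 25 and 21 without sham array 1, and 0 passed and 0 had such a p, against 4.75% of all genes. The smallest p values were those of the creatine carrier Slc6a8 (-0.33), Slc5a6 (-0.62), Slc27a4 (-0.30) and the transferrin receptor gene Tfrc (-0.28), which were -0.33, -0.72, -0.30 and -0.19 without that array.

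Of 25 genes known to build or tune the barrier, through Wnt, Sox, Fox, nuclear receptor and angiogenic signals, 6 were higher and 19 lower in 3VO than in sham arteries at both times. The medians were -0.18 at 24 h and -0.11 at 3 d, and 0 passed by limma, with 2 and 1 at an unadjusted p under 0.05, against 7.30% and 4.75% of all genes. Without sham 3 d array 1 the 3 d counts were 10 higher and 15 lower, with a median of -0.089. At 24 h the smallest p values belonged to the nuclear receptor gene Ppard (-0.34, SE 0.13, adjusted p = 0.609 by limma), the peptidase gene Anpep (-0.30), the glucocorticoid receptor gene Nr3c1 (-0.29) and Adgra2 (-0.49), a partner of Wnt7 signalling. At 3 d they belonged to Foxc1 (0.63, SE 0.25, adjusted p = 0.999 by limma), Vegfa (-0.37), Tgfbr1 (0.17) and Kdr (-0.30), which were 0.78, -0.29, 0.098 and -0.13 without that array. Anpep, Foxc1, Kdr and Esam also stand among the pericyte, meningeal or endothelial markers used here, so these lists are not independent of the cell make-up.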

How the data were processed

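Per the labels' protocols, the authors hybridised biotin-labelled cRNA to Rat230A arrays, and the deposited values are linear signal intensity from GCOS, scaled by the authors to a stated target of 500; the 2% trimmed mean of the deposited intensity was 5000 on every array, 10 times that target. No source used here states the GCOS version, and no genome build bears on these values. Probe sets were named from the platform annotation updated by gene ID: 12783 had 1 gene, 312 several and 2771 none, and the 57 control probe sets were left out.

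Signals were taken as log2(signal + 16), kept where at least 3 arrays reached 100, which left 15737 probe sets of 15923, and fitted with limma 3.58.1 in R 4.3.3 as 5 group means over 15 arrays (eBayes with a variance trend, 10 residual degrees of freedom). The fitting was tested on simulated data with independent noise and planted changes larger than the differences of the set from sham surgery. That test does not show whether differences as small as these would be found. The pseudocount makes fold changes of low signals smaller than they are. Calls used Benjamini-Hochberg adjusted p under 0.05. For lists, the brightest probe set of a gene was used, members left out. Of a member's probe sets the brightest leads, and from each wider list the genes that passed, or else the 4 with the smallest p against sham, were named. The genes and lists were chosen with earlier results of these data known. No 2 arrays held the same data: over 105 pairs at most 0.163% of values were identical. Promoters came from RefSeq on GRCr8 and were found for 6 of the 7 measured genes. Alternatives varied the pseudocount, filter, normalization, variance model, array weights, covariates, the samples fitted and each array left out.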

Additional observations from a re-analysis of the deposited data

How the results depend on the processing

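No paired analysis was possible because the array numbers within a group only name the arrays. Counts of passing probe sets were computed under 266 pairs of comparison and alternative, and 265 gave the same count; the exception was sham at 24 h against intact arteries, where leaving out 1 array at a time gave 0 to 2, the 2 without intact replicate 3. Of 594 recomputed log2 differences between 3VO and sham arteries, 28 took the opposite sign, and none passed the test. With the array number as a covariate Ocln 1378753_at was -0.0186 at 3 d. With the endothelial mean as a covariate, chosen after seeing the data, the 24 h differences were 0.31 for Slco1c1, 0.14 for Cldn5 and 0.0126 for Slco1a4 1387094_at, and those at 3 d were 0.22 for Slco1c1, 0.10 for Tjp1, 0.30 for Cldn5, 0.29 for Slco1a4 1387093_at and 0.27 for Slco1a4 1387094_at. Without the 2 arrays rich in choroid plexus genes, also chosen after seeing the data, the 3 d differences were 0.10 for Slco1c1 and 0.0035 for Slc7a5. The cause of these turns was not tested. Leaving out 1 array at a time, the 24 h difference ranged between -0.31 and 0.17 for Slco1c1 and between -0.0145 and 0.49 for Slc7a5. At 3 d the ranges were -0.10 to 0.23 for Ocln 1378753_at, -0.54 to 0.23 for Slco1c1, -0.49 to 0.0855 for Slc7a5, -0.11 to 0.19 for Abcb1a 1370465_at, -0.31 to 0.11 for Slco1a4 1387093_at and -0.41 to 0.11 for Slco1a4 1387094_at. The other differences kept their sign under the alternatives run. With 3 arrays a group and pooled RNA, small differences in these genes cannot be told from the spread between arrays.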
